A study of Bombus terrestris with 33 samples.

Results

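Brains of Bombus terrestris queens, the buff-tailed bumblebee, were compared 1 month after hibernation between queens with developed ovaries and queens with undeveloped ovaries. Of the 33 queens in the series, 16 belong to this comparison, 8 labelled SR (successfully reproductive) and 8 labelled FR (failed reproductive), and they were chosen by those labels alone. All 16 were daughters of purchased commercial colonies, were offered males at 5 days of age, mated, and spent 8 weeks at 5 °C. They were then kept on pollen and sugar water in boxes with sand for 1 month before being frozen. SR queens showed fully developed ovaries with mature eggs at dissection, and FR queens showed undeveloped ovaries. The queens were sorted by this outcome and not assigned to it, so any state that goes with ovary development is part of the comparison.

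The SR queens came from colonies C2 (2 queens), C3 (3 queens) and C9 (3 queens), and the FR queens from C2 (3 queens), C3 (3 queens) and C9 (2 queens). Estimated age, read as days, had a lowest, median and highest value of 94, 95.5 and 97 in SR queens, against 91, 96.5 and 102 in FR queens. The mRNA of 1 whole brain per queen was sequenced. Total counts ran from 44365333 to 56845862 in SR queens and from 44074336 to 54995271 in FR queens, so depth did not separate the groups. In the values of whole libraries FR replicates 37 and 32 and SR replicate 47 stood apart from their own groups. Several, though not all, of the results that rest on them are given with and without them. The other 17 queens, 8 SM (sampled 3 days after mating) and 9 FM (exposed to males, not mated), were sampled before hibernation. They were far younger, with estimated ages of 11 to 20 days in SM queens and 6 to 27 days in FM queens. Colony C7 supplied 3 SM and 3 FM queens but no SR or FR queen. These 17 queens enter the filter on low counts, the scaling, the shared estimate of spread and colony effects, and their own placement.

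A bumblebee queen founds her nest alone. After diapause she feeds, her ovaries mature under juvenile hormone and nutrient signals, and the fat body makes the yolk protein vitellogenin. The brain senses feeding state and social cues and sets egg laying, foraging and brood care, so brain expression is commonly compared between queens that do and do not start to reproduce. Reads were counted on contigs, assembled sequence stretches that carry numbers in place of names. The files do not pair them with genes, and 0 of 10672 identifiers matched the 13398 genes of the reference table. Functions, pathways and markers of brain cells therefore could not be assigned. In a whole-brain sample, fewer cells of a type and less RNA per cell cannot be told apart.

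The first question was which brain transcripts differed between the outcomes. Of 5606 tested contigs, 1652 (29.5%) were called by edgeR's quasi-likelihood test at an adjusted p under 0.05, with 799 (14.3%) higher and 853 (15.2%) lower in SR queens. Leaving out SR replicate 47 gave 1822 calls and SR replicate 39 gave 1099, the fewest for any 1 queen. Leaving out FR replicate 32 gave 1856, and FR replicate 37 gave 2132, the most. Without colony C2 or without colony C3, 0 contigs were called (1175 and 1435 at an unadjusted p under 0.05). A minimum change of 1.2-fold left 186 calls, and limma voom with quality weights gave 3257. The changes were mostly small. Of the contigs higher in SR queens, 582 (72.8%) changed by less than 1.5-fold, 131 by 1.5-fold to 2-fold, 66 by 2-fold to 4-fold and 20 by 4-fold or more. Of the contigs lower in SR queens, 397 (46.5%) changed by less than 1.5-fold, 214 by 1.5-fold to 2-fold, 212 by 2-fold to 4-fold and 30 by 4-fold or more. The median log2 fold change, SR minus FR, was 0.37 among called contigs that were higher and -0.64 among those that were lower, against -0.04 over all tested contigs.

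Size and direction went with the level of a contig. Level here is the mean over the 16 queens in CPM, the read count of a contig relative to the size of its library, scaled by the trimmed mean of M-values (TMM). Among contigs under 1 CPM, 49 were higher and 165 lower in SR queens, and among those at 1 to 10 CPM 116 were higher and 281 lower. At 10 to 100 CPM the counts were 191 higher and 223 lower. At 100 to 1000 CPM they were 364 higher and 150 lower, and at 1000 CPM or more 79 higher and 34 lower. Sparse contigs were thus more often lower in SR queens, and abundant contigs more often higher with TMM scaling, though not with total counts. Precision changed along the same scale. The median standard error of a log2 fold change was 0.34 under 1 CPM and 0.070 at 100 to 1000 CPM, and the share called was 13.5% and 44.4% in the same classes. The excess of higher contigs at 100 to 1000 CPM depended on the scaling, and upper-quartile scaling left 243 higher against 205 lower. With total counts and no scaling factors it turned round to 70 higher and 339 lower, a setting that moved the median log2 fold change of all tested contigs to -0.22. The excess of lower contigs under 10 CPM was seen under each of these scalings. Over all levels the split was 574 higher against 1017 lower under upper-quartile scaling, and 215 higher against 1537 lower with total counts.

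**Figure D1:**
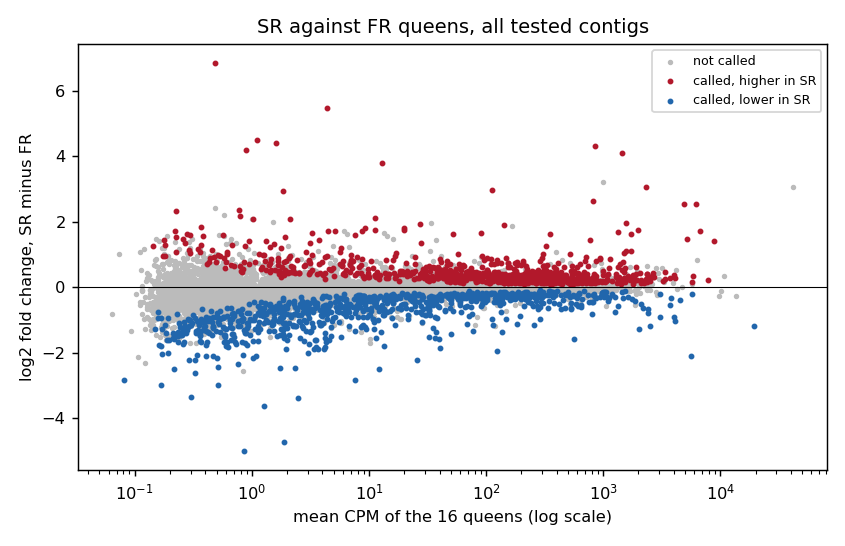
Log2 fold change (SR minus FR) of each of the 5606 tested contigs against its mean CPM over the 16 queens (log scale), with called contigs in red where higher and blue where lower in SR queens. With TMM scaling the higher contigs are most numerous at 100 to 1000 CPM (364 of 799, a class that turned mostly lower with total counts) and the lower ones at 1 to 10 CPM (281 of 853).

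Called changes of more than 2-fold were mainly in sparse contigs, where the larger standard error makes small changes harder to call. The most abundant class did not follow this. At 1000 CPM or more, 14 of 79 higher and 5 of 34 lower contigs changed by more than 2-fold, against 9 of 364 and 6 of 150 at 100 to 1000 CPM. Over all levels, contigs more than 2-fold higher numbered 86, with a median level of 3.50 CPM. Those more than 2-fold lower numbered 242, with a median level of 0.946 CPM. The group medians also differed by more than 2-fold in the same direction for 79 of the 86 and for 228 of the 242. The means had the same direction in colonies C2, C3 and C9 for 84 of the 86 and 201 of the 242. These contigs were chosen for their difference in the same queens, so agreement of medians and of colony means is partly built in. No share over all tested contigs is given for either count. Values of single queens nevertheless overlapped for most of these contigs. Every SR queen lay above every FR queen in 5 of the 86 and below in 6 of the 242.

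Across all tested contigs, 49 (0.874%) had no overlap between the groups. In 22 (0.392%) every SR queen was above every FR queen, of which 20 were called, and in 27 (0.482%) every SR queen was below, of which 26 were called. Over all tested contigs 29.5% were called, but separation in the same queens makes a call likely. Among the contigs without overlap, the called ones had a median absolute log2 fold change of 0.41 where higher, in a range of 0.10 to 1.71. Where lower, the median was 0.56, in a range of 0.23 to 2.49. At 5 CPM or above there were 15 higher and 20 lower ones among them, and the 2 with the largest change in each direction are given by name.

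Contig5336 had a lowest, median and highest level of 9.42, 11.0 and 13.7 CPM in SR queens, against 4.24, 6.44 and 8.48 CPM in FR queens. The lowest SR queen (replicate 47) lay above the highest FR queen (replicate 32). The mean was 11.4 ± 1.39 CPM in SR queens and 6.17 ± 1.39 CPM in FR queens (SD, n = 8 each), so SR exceeded FR by 0.85 ± 0.29 on the log2 scale (SE, adjusted p = 0.0290 by edgeR). Its size hardly varied between colonies, with log2 fold changes of 0.91 ± 0.26 in C2, 0.91 ± 0.24 in C3 and 0.79 ± 0.27 in C9 (SE). The call was lost without SR replicate 39 or 40 or FR replicate 28, 33, 36 or 38, where the log2 fold change lay between 0.79 and 0.84. It was also lost against a minimum change of 1.2-fold (edgeR adjusted p = 0.114), without colony C9 (0.86, edgeR adjusted p = 0.0714) and with total counts and no scaling factors (0.67, edgeR adjusted p = 0.0529).

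Contig1865 had 118, 136 and 190 CPM in SR queens as lowest, median and highest level, against 60.7, 69.1 and 116 CPM in FR queens. The 2 groups came close at SR replicate 45 and FR replicate 37, and the FR queen next below replicate 37 was replicate 32 at 94.0 CPM. The mean was 141 ± 24.6 CPM in SR queens and 77.8 ± 18.5 CPM in FR queens (SD, n = 8 each), which is 0.85 ± 0.20 higher on the log2 scale (SE, adjusted p = 0.00542 by edgeR). Within colonies the means were 151 CPM in SR and 68.6 CPM in FR queens of C2, 143 and 73.9 CPM in C3, and 130.5 and 97.4 CPM in C9. Their order is fixed by the choice of contigs without overlap, and only the size of the gap is free.

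Contig3915 was lower in SR queens, with 1.19, 3.50 and 4.18 CPM as lowest, median and highest level, against 4.38, 23.9 and 33.5 CPM in FR queens. SR replicate 49 was the lowest and the other SR queens lay between 2.69 and 4.18 CPM. FR queens held 18.3 to 33.5 CPM in 5 queens and 12.6, 6.89 and 4.38 CPM in replicates 38, 32 and 37. On the log2 scale the difference was -2.49 ± 0.61 (SE, adjusted p = 0.00589 by edgeR).

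Contig4196 was also lower in SR queens, with 43.0, 68.9 and 138 CPM as lowest, median and highest level, against 154, 183 and 278 CPM in FR queens. SR replicate 47 held the highest SR value and FR replicate 37 the lowest FR value. The mean was 77.2 ± 29.01 CPM in SR queens and 195 ± 45.2 CPM in FR queens (SD, n = 8 each), a difference of -1.38 ± 0.31 on the log2 scale (SE, adjusted p = 0.00450 by edgeR). Apart from the losses given for Contig5336, the 4 named contigs lost their calls without colony C2 and without colony C3, where no contig of the table was called. The range of their adjusted p over all alternatives reached 0.198 for Contig5336, 0.154 for Contig1865, 0.135 for Contig3915 and 0.117 for Contig4196.

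**Figure D2:**
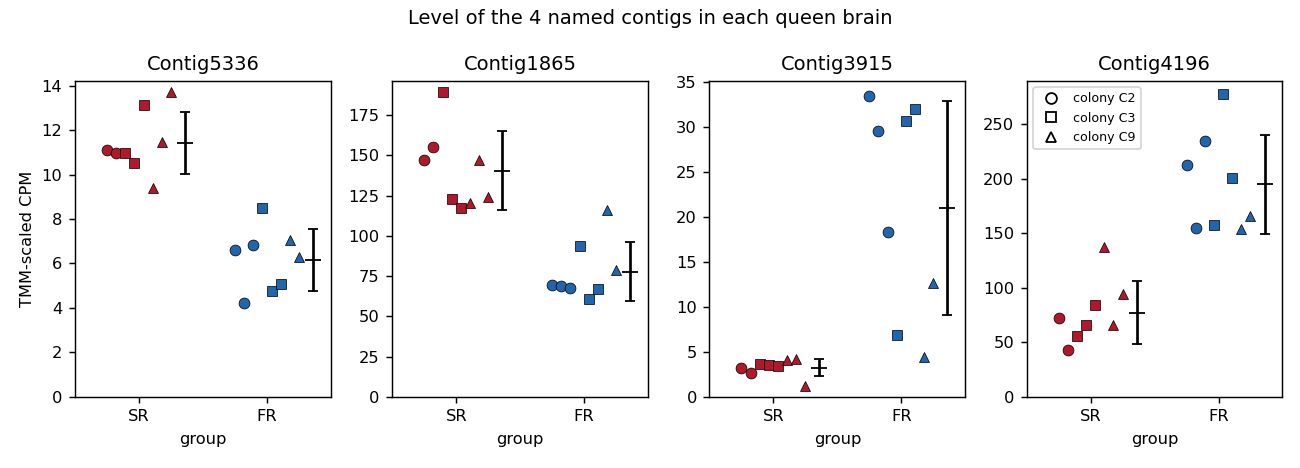
TMM-scaled CPM of Contig5336, Contig1865, Contig3915 and Contig4196 in each of the 8 SR and 8 FR queens, with colony by marker shape and the mean ± SD beside each group. The 4 contigs were chosen to have no overlap between the groups. The FR queens of Contig3915 spread from 4.38 to 33.5 CPM.

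Among the 10 most abundant contigs of the 16 queens, given by rank of their mean share of reads, 5 were called. This is near the share at their level, since 113 of 211 tested contigs (53.6%) were called at 1000 CPM or more. The contig of rank 10 was lower in SR queens. It held 0.116%, 0.151% and 0.315% of reads as lowest, median and highest share in SR queens, against 0.195%, 1.2004% and 1.67% in FR queens, and its log2 fold change was -2.12 ± 0.57 (SE, adjusted p = 0.00925 by edgeR). FR replicates 32 and 37, at 0.268% and 0.195%, fell within the SR range, and the other 6 FR queens held at least 0.720%. The contigs of ranks 7 and 9 were higher in SR queens. Rank 7 held 0.541%, 1.23% and 1.95% of reads in SR queens, against 0.117%, 0.486% and 1.10% in FR queens, with a log2 fold change of 1.42 ± 0.43 (SE, adjusted p = 0.0163 by edgeR). Rank 9 held 0.168%, 0.797% and 1.69% in SR queens, against 0.199%, 0.242% and 0.927% in FR queens, with a log2 fold change of 1.71 ± 0.49 (SE, adjusted p = 0.0127 by edgeR). FR replicate 32 held the highest FR share of both, inside the SR range, and SR replicate 47 held the lowest share of rank 9 of all 16 queens. Both calls were lost against a minimum change of 1.2-fold (edgeR adjusted p = 0.0656 for rank 7 and 0.0539 for rank 9). Rank 2 was lower and rank 8 higher in SR queens, and the change of rank 8 was small (0.23 ± 0.078 on the log2 scale, SE, adjusted p = 0.0274 by edgeR). The call of rank 8 was lost under upper-quartile scaling (0.18) and total counts (0.044), and against a minimum change of 1.2-fold (edgeR adjusted p = 0.750). It was also lost without SR replicate 39 or 40 or FR replicate 33, 36 or 38, where the log2 fold change lay between 0.19 and 0.22.

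The composition of the libraries also differed between the outcomes. SR queens had 3820, 3886 and 4030 contigs at 1 CPM or more as lowest, median and highest number, against 3889, 4160 and 4185 in FR queens. FR replicates 32 and 37, at 4010 and 3889, lay within the SR range, and the other 6 FR queens lay above every SR queen. The mean was 3893 ± 73.2 in SR queens and 4097 ± 108 in FR queens (SD, n = 8 each; two-sided exact permutation p = 0.00186, adjusted p = 0.00699 over 9 library measures). Within colonies the means were 3889 in SR and 4174 in FR queens of C2, 3863 and 4111 in C3, and 3925 and 3961 in C9, in the same order. The most abundant contig held 6.78 ± 3.62% of reads in SR queens and 0.988 ± 1.64% in FR queens, a difference that passed the exact permutation test (adjusted p = 0.00699) but not edgeR's test across all contigs (log2 fold change 3.06 ± 1.205 SE, adjusted p = 0.0548). That edgeR result turned on the queens that stood apart. Leaving out SR replicate 47 gave a call at 3.31 (adjusted p = 0.0342 by edgeR), as did leaving out FR replicate 37 at 3.33 (adjusted p = 0.0466 by edgeR) or FR replicate 32 at 5.10 (adjusted p = 0.00932 by edgeR). It was also called with no colony term (2.93), with a filter of 1 CPM in 8 queens (3.05), with DESeq2 (3.07, adjusted p = 0.00206) and with limma voom (6.34, adjusted p = 2.55e-05). Its adjusted p over all alternatives reached 0.327, without colony C2. It took 0.0655% in SR replicate 47 and 4.78% in FR replicate 32, so the groups overlapped. With the 10 most abundant contigs left out of the totals, the number of contigs at 1 CPM or more was still lower in SR queens, at 4014 ± 57.1 against 4193 ± 107 in FR queens (exact permutation adjusted p = 0.00746). Without those 10 contigs in the test of single contigs, 1644 were called, of which 1643 were among the 1652.

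Reads were also more concentrated in SR queens. The number of contigs needed to reach 50% of the reads was 158 ± 25.6 in SR queens and 185 ± 11.5 in FR queens (SD, n = 8 each; exact permutation adjusted p = 0.0395). With the 10 most abundant contigs left out of the totals it was 217 ± 10.8 in SR queens and 232 ± 6.37 in FR queens, a difference of -14.4 in place of -27.4 (exact permutation adjusted p = 0.0140). The 10 most abundant contigs held 15.0 ± 3.76% of reads in SR queens and 11.6 ± 1.32% in FR queens (exact permutation adjusted p = 0.0456). Both measures lay close to the threshold. Both calls were lost when 1 queen was left out, whether SR replicate 40, 43, 44, 48 or 49 or FR replicate 27, 28, 31, 33, 36, 37 or 38, and that of the 10 most abundant contigs also without SR replicate 39. The difference then lay between -28.0 and -22.4 contigs and between 2.79 and 3.57 percentage points. SR replicate 47 was unlike the other SR queens in both, with 197 contigs and 8.55% of reads. Total counts, age and the second principal component did not pass (exact permutation adjusted p = 0.880, 0.613 and 0.880).

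The first principal component of the 16 queens (log2 CPM) held 42.2% of the variance, and its sign was set so that the SR mean was the higher. SR queens scored 21.2 ± 8.58 and FR queens -21.2 ± 22.7 (SD, n = 8 each; exact permutation p = 0.000777, adjusted p = 0.00699). SR replicate 47 lay at 1.55 and the other SR queens between 17.1 and 28.5. Among FR queens, replicate 37 lay at 20.8 and replicate 32 at 1.98, while the remaining 6 lay between -42.2 and -13.6. Mean scores were 24.0 in SR and -36.8 in FR queens of C2, 24.7 and -22.0 in C3, and 15.7 and 3.598 in C9, in the same order of groups. In C9 the FR queens are replicates 37 and 38.

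**Figure D3:**
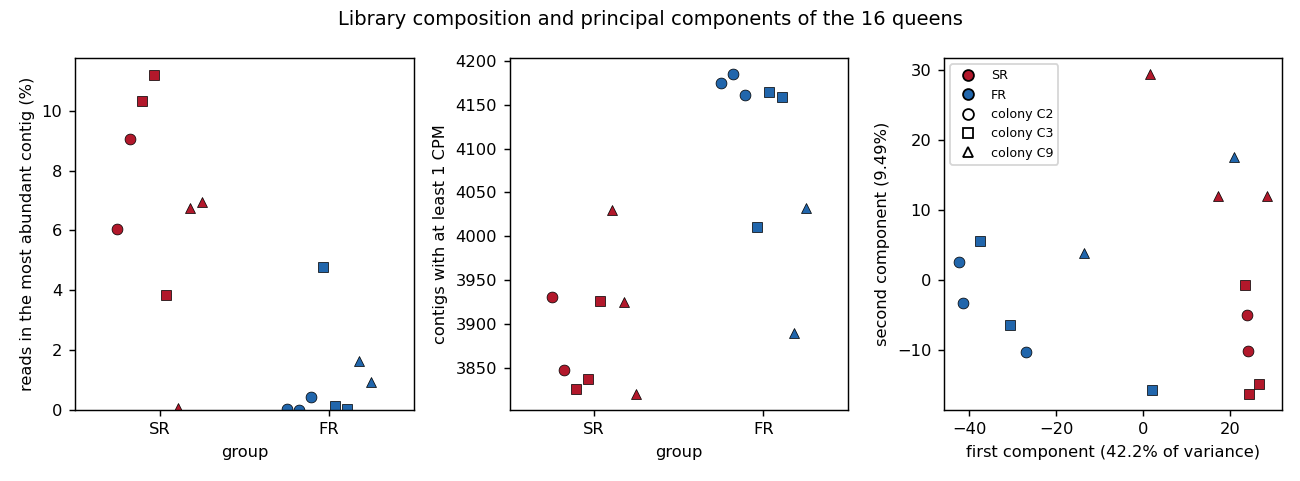
Share of reads in the most abundant contig (%), number of contigs with at least 1 CPM, and scores on the first and second principal components for each SR (red) and FR (blue) queen, with colony by marker shape. FR replicate 37 of colony C9 has 3889 contigs at 1 CPM or more and a first component score of 20.8, inside the SR range of both.

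The same individuals lay farthest from their own groups. The distance of a queen from the mean of the other queens of its group (root mean square of log2 CPM over tested contigs) averaged 0.511 ± 0.0553 in SR queens and 0.531 ± 0.122 in FR queens (SD, n = 8 each), which did not pass (exact permutation adjusted p = 0.880). The longest distance was 0.778, for FR replicate 37, against 0.637 for FR replicate 32 and 0.631 for SR replicate 47. The SD of log2 CPM was larger in FR queens for 3394 of 5606 contigs (60.5%). This share was 51.0% without FR replicate 37 and 40.5% without FR replicates 32 and 37. All 8 SR queens, with replicate 47, were kept in these counts. Leaving out the farthest queens of 1 group lowers its SD, so the fall is partly built in. The nearest of the other 15 queens was of the same group for 4 of 8 SR queens and 7 of 8 FR queens. It was of the same colony for 7 of 8 SR queens and 4 of 8 FR queens. For SR replicates 45, 47, 48 and 49, the first of colony C3 and the others of C9, the nearest queen was FR replicate 37, itself of C9.

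FR replicate 37 was also what limited the number of contigs without overlap. Leaving it out raised that number to 570 (10.2% of those tested), 323 higher and 247 lower in SR queens, against 49 with all 16. Leaving out any other queen gave between 49 and 107, with 97 without FR replicate 32 and 107 without SR replicate 47. Of the 570, 298 of the 323 higher contigs and 227 of the 247 lower contigs were called with all queens in the test. Those called had median log2 fold changes of 0.35 and -0.79. Over all tested contigs 29.5% were called. The 570 were chosen for separation in the same queens, all but FR replicate 37, so their calls are largely built in.

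**Figure D4:**
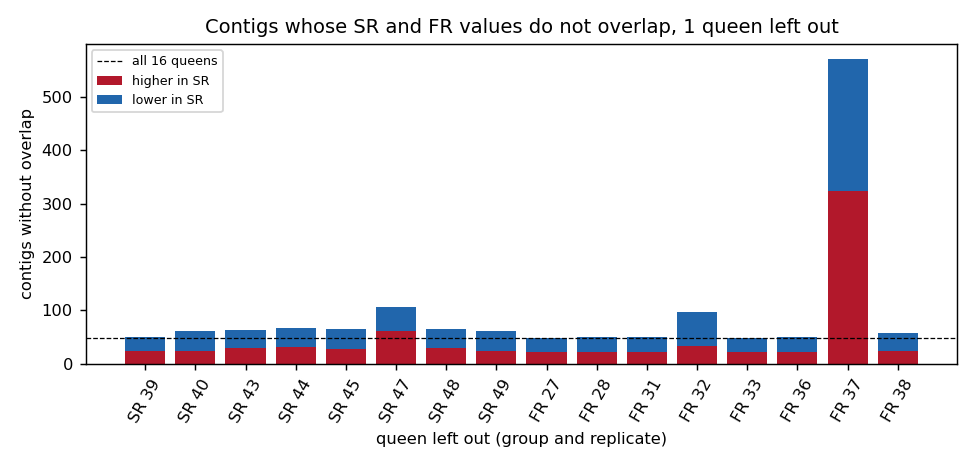
Number of tested contigs whose SR and FR values do not overlap when 1 queen is left out, stacked by direction (red, higher in SR queens; blue, lower), with the number for all 16 queens as a dashed line. The bar for FR replicate 37 reaches 570 and the others stay at 107 or fewer.

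To place each queen with contigs that were chosen without it, the test was repeated without that queen, and the left-out queen was counted as nearer to the SR or to the FR mean at each called contig. SR queens were nearer to the SR mean at 64.3%, 87.1% and 91.7% of called contigs as lowest, median and highest share, and replicate 47 was the lowest. FR queens were nearer to the SR mean at 2.29%, 6.38% and 88.7%. The 5 lowest FR queens lay under 10%, replicate 38 at 28.2%, replicate 32 at 59.4% and replicate 37 at 88.7%. FR replicate 37 was thus placed within the SR range, at 1887 of the 2127 contigs that were called without it and were also among the 5606 tested with all queens. The labels give FR replicates 32 and 37 estimated ages of 91 and 93 days, the lowest 2 of the FR queens.

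Queens sampled before hibernation covered nearly the whole span. At the 1652 called contigs, SM queens were nearer to the SR mean at 35.6%, 60.2% and 89.0% as lowest, median and highest share, and FM queens at 8.47%, 63.3% and 91.8%. FM replicates 2 and 4, both of colony C2, lay at 91.8% and 8.47%. The called contigs were chosen for a gap between the SR and FR means, so the mean of another group tends to fall between them. No share over all tested contigs is given beside the counts that follow, and the SM and FM queens include colony C7 and lack C9. Of the 799 contigs higher in SR queens, the SM mean lay between the FR and SR means in 644, beyond the SR mean in 133 and beyond the FR mean in 22. For the FM mean these counts were 669, 108 and 22. Of the 853 contigs lower in SR queens, the SM mean lay between in 643, beyond the SR mean in 185 and beyond the FR mean in 25, and for the FM mean the counts were 679, 155 and 19. Contig4196 had a median of 60.8 CPM in SM queens, in a range of 36.5 to 116 CPM, and of 40.7 CPM in FM queens, in a range of 31.7 to 156 CPM. Against SR queens the FM median lay below the lowest queen (43.0 CPM), and against FR queens 1 FM queen, replicate 4, lay above the lowest (154 CPM). Contig3915 spanned 1.74 to 16.4 CPM in SM queens and 1.81 to 33.2 CPM in FM queens.

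**Figure D5:**
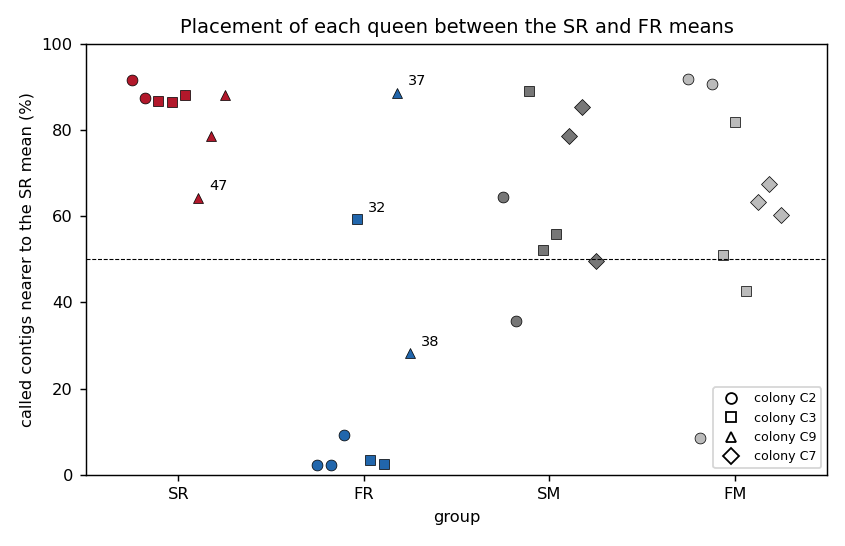
Share of called contigs (%) at which a queen lay nearer to the SR than to the FR mean, for each SR, FR, SM and FM queen, with colony by marker shape and a dashed line at 50%. SR and FR queens were placed with contigs called without them, and FR replicate 37 lies at 88.7% among the SR queens.

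Colony was a term of the test, and the size of the difference was compared between colonies in a fit of the 16 queens in which SR minus FR could differ by colony. Over 1603 of the called contigs, the median log2 fold change in the pooled direction was 0.62 in C2, 0.49 in C3 and 0.18 in C9, with median standard errors of 0.19, 0.17 and 0.18. The contigs and their direction were chosen in the same queens, so medians above 0 are partly built in. No such median over all tested contigs is given. Within C2 edgeR called 1456 contigs (27.5% of 5299 tested), within C3 990 (18.7%), and within C9 0 (343 at an unadjusted p under 0.05). With all 33 queens in the fit these counts were 676, 8 and 0. The test of whether the difference varied among the 3 colonies called 0 contigs with edgeR (783 at an unadjusted p under 0.05) and 215 with the likelihood ratio test of DESeq2. Leaving out 1 queen gave edgeR 125 calls without FR replicate 38, 25 without FR replicate 32, 3 without SR replicate 44 and 1 without SR replicate 47 or 49. For the named contigs the edgeR adjusted p of this test was 0.971 for Contig5336, 0.405 for Contig1865, 0.514 for Contig3915 and 0.374 for Contig4196.

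The contigs called without colony C9 were then read in the C9 queens, which had no part in choosing them. Without C9, 1980 contigs (34.4%) were called. Of those also tested with all queens, 901 were higher in SR queens, and in C9 684 (75.9%) of them were higher and 217 lower. Of 1048 lower contigs, 733 (69.9%) were lower in C9 and 315 higher. Among 3657 contigs not called, 48.6% were higher in C9. Medians were 0.084 in C9 against 0.45 in the other colonies for higher contigs, and -0.14 against -0.83 for lower contigs. These are unlike measures, so the gap between them does not give the size of a difference between colonies. The values of the other colonies are edgeR estimates from the queens that chose the contigs, which tends to enlarge them. Those of C9 are plain differences of mean log2 CPM. The shares and medians in C9 rest on its 2 FR queens. Without FR replicate 37, 87.5% of the higher and 87.1% of the lower contigs kept their direction, with median log2 differences of 0.20 and -0.34. Without FR replicate 38, 39.3% and 40.3% did, with medians of -0.038 and 0.056. FR replicate 38 thus differed from the SR queens of its colony in the direction seen in C2 and C3, and FR replicate 37 did not.

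Contigs left out of the test held few reads, and the tested ones took 99.99% of the reads of the 16 queens. Of the 5066 untested contigs, 2066 had no read in any of the 16 queens. Reads in 0 SR queens and in all 8 FR queens were found for 1 contig, and 0 had the opposite pattern. Of contigs with reads in 5 or more queens of one group and none of the other, 7 were seen in SR queens and 11 in FR queens. No tested contig was without reads in either group.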

How the data were processed

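Each queen's brain mRNA had its own TruSeq library, per the labels' protocols. FastQC, TopHat, SAMtools and edgeR appear in the submitters' processing notes. The genome build, annotation and counter were not given in the sources used here. What the authors deposited is a table of raw read counts, 1 column per library, per the file headers; 0 columns lay outside the series. Their scaled and clustering tables were not used.

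The filterByExpr function, by group with a minimum count of 10, kept 5606 contigs over the 33 libraries. With the 16 SR and FR queens alone it kept 5299. After TMM scaling, 1 model of group plus colony was fitted to the 33 libraries (edgeR 4.0.16 quasi-likelihood test, robust, R 4.3.3), with Benjamini-Hochberg adjustment over all contigs. Each SE is the absolute log2 fold change over the root of its F statistic. Log2 CPM used a prior count of 2. Exact two-sided permutation tests of 9 library measures ignored colony. The difference between colonies was tested in the 16 queens. Named contigs are the 2 per direction with the largest change among called contigs of at least 5 CPM with no overlap and 1 direction in every colony. The groups, tests and naming rule were chosen with earlier results of these data known. The labels do not pair queens, and no 2 libraries agreed within sampling noise (lowest chi-square per degree of freedom 82.5 over 120 pairs). Alternatives included DESeq2 1.42.0 and limma 3.58.1 voom with quality weights.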

Additional observations from a re-analysis of the deposited data

Results flagged for a closer look

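Gaps within a group were examined in 28 sets of 8 queens (library measures, named contigs and placement), and 4 sets had a highest or lowest queen beyond Dixon's 95% critical value, where chance gives about 1 in 20. FR replicate 32 was the highest FR queen for the share of reads in the most abundant contig, at 4.78% against 1.64% for the next. It was also the highest for the share in the 10 most abundant contigs, at 14.4% against 12.2%, and needed the fewest contigs to reach 50% of the reads, at 161 against 181. SR replicate 47 had the lowest SR score on the first principal component, at 1.55 against 17.1 for the next.

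The difference SR minus FR in colony C9 less its mean in C2 and C3 was tested after the values by colony were seen. In 14 contigs (0.264% of 5299) this contrast passed edgeR's test, 4 above and 10 below 0. The absolute log2 differences ran from 0.48 to 2.49, and 11 of the 14 had opposite signs in C9 and in both other colonies. The count depended on single queens. Leaving out SR replicate 49 gave 117 calls, SR replicate 44 gave 26, SR replicate 48 gave 2, and SR replicate 40 or 47 gave 1. Leaving out FR replicate 38 gave 492, FR replicate 32 gave 431, FR replicate 31 gave 7, FR replicate 36 gave 5, FR replicate 27, 28 or 33 gave 1, and FR replicate 37 gave 0. SR replicates 39, 43 and 45 gave 15, 10 and 8.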

How the results depend on the processing

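No paired analysis was possible because SR and FR queens share no replicate number. The 1652 calls became 186 against a minimum change of 1.2-fold, 3257 with limma voom and quality weights, 0 when colony C2 or colony C3 was left out, where 1175 and 1435 contigs had an unadjusted p under 0.05. The cause was not tested, and fewer queens enter the last 2 fits. Leaving out 1 queen gave 1099 to 2132 calls, the lowest without SR replicate 39 and the highest without FR replicate 37. All other settings stayed within 1.5 times, and 1549 calls were shared with the fit of the 16 queens alone. The test of a difference between colonies called 4 contigs with no filter on low counts, 215 with DESeq2 and 0 to 125 with 1 queen left out. The contrast of C9 with C2 and C3 called 1 with total counts, 0 with all 33 queens and 0 to 492 with 1 queen left out. Contigs without overlap numbered 1243 without colony C9, where 5 SR and 6 FR queens remain, and 49 to 570 with 1 queen left out. Smaller groups separate more easily, so the 1243 cannot be set against the number for all 16 queens. No share over tested contigs is given for it. Without C9 the share of reads in the 10 most abundant contigs differed by 4.46 percentage points and the contigs reaching 50% of the reads by -34.7 (exact permutation adjusted p = 0.0506 for both). With 1 queen left out these differences lay between 2.79 and 4.41 and between -33.0 and -22.4. Those of the most abundant contig (5.16 to 6.75 percentage points), of the contigs at 1 CPM or more (-234 to -192) and of the first component (39.8 to 48.2) passed each time. The sign of the first component was set in each setting so that SR queens scored higher, so its direction could not change. The 4 named contigs kept their direction in each setting run. They were chosen without overlap and with 1 direction in every colony, so leaving out queens or a colony could hardly change it. The contigs of ranks 1, 2, 7, 8, 9 and 10 and the other called library measures also kept their direction. Single other contigs were not followed. The difference in distance from the own group, which was not called, lay between -0.0466 and 0.0222 with 1 queen left out. With colonies of 2 or 3 queens a group, a change seen in 1 colony has little replication.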

Other observations

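Among the 8 FR queens, Pearson's r between estimated age and the share of called contigs nearer to the SR mean was -0.596 (exact permutation p = 0.126, adjusted p = 0.251 over 2 tests) and Spearman's rho was -0.349 (exact permutation p = 0.389, adjusted p = 0.389). With replicates 32 and 38 left out, whose ages lie farthest from the median, r was -0.769 (exact permutation p = 0.139) over 6 queens. Spearman's rho over the same 6 queens was -0.353 (exact permutation p = 0.522). This relation was looked at after the placements were seen, and it did not pass.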
